A study of Mus musculus with 4 samples.

Results

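The mouse genes named for eukaryotic translation initiation factors were examined in zygotes, fertilised eggs that have not yet divided. Members were the genes of the deposited count table whose symbol starts with Eif followed by a digit from 1 to 6. Names containing -ps, which mark pseudogenes, names starting with Eif1ad, and Eif4e1b and Eif4enif1 were left out, 13 of the 68 symbols that start this way. The rule used names only and gave 55 genes of 55291 in the table. Of the 55, 53 had counts, and Eif4ebp3 and Eif2c5 were at 0 in all 8 libraries. Eif2c5 is an exception by name: Eif2c is an older name of the Argonaute genes, and GENCODE M21 annotates Eif2c5 as a long noncoding RNA.

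The series asks about maternal histone H3.3 and the parental genomes while the first, minor wave of embryonic transcription takes place. It holds 4 samples of zygote RNA, 1 per group: zygotes injected with an H3.3 MO and their control, and zygotes injected with H3.3 S31A and a separate control. MO is not spelled out in the labels and in embryo work usually stands for morpholino, an antisense oligonucleotide. S31A, written in amino acid letters, reads as alanine in place of a serine. The labels give no strain, age, number of zygotes pooled, form of the injected S31A or treatment of the control zygotes. Each sample has 2 count columns, called library 1 and library 2, and no source says whether these came from separate embryos. With 1 sample per group the differences have no replicate check, and 95% intervals cover counting error only.

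Initiation factors bring the small ribosomal subunit, the initiator methionyl-tRNA and the mRNA together and select the start codon. eIF2 carries the initiator tRNA as a complex with GTP, eIF2B recharges eIF2 with GTP, and kinases that phosphorylate the alpha subunit of eIF2 block that recharging. eIF4E binds the mRNA cap, eIF4G is the scaffold, eIF4A unwinds the leader, and 4E-binding proteins keep eIF4E from eIF4G. eIF3 is the large complex on the small subunit, and eIF5B joins the large subunit. Egg and zygote proteins are made mainly from mRNA stored by the mother, so these factors act on an mRNA pool that is read selectively.

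Library totals ran from 5661621 to 13233371 counts, 11372 to 15156 genes had counts in a library, and 3.47% to 10.4% of counts were on mitochondrially encoded genes, at 3.47% to 5.55% in the MO experiment and 7.13% to 10.4% in the S31A experiment. Members took 0.448% to 0.742% of the counts, and 44 to 52 of them were detected per library. H3f3b, an H3.3 gene, stood at 2.30 and 10.5 CPM (library counts brought to one total) in MO injected zygotes against 2199 and 1550 CPM in MO controls, and at 2438 and 2749 CPM in S31A injected zygotes against 1453 and 1819 CPM in S31A controls. The other H3.3 gene, H3f3a, stood at 8.04 and 52.4 CPM in MO injected zygotes against 462 and 586 CPM in MO controls, and at 484.5 and 648 CPM in S31A injected zygotes against 657 and 563 CPM in S31A controls. All 12 oocyte and zygote markers examined had counts, and their sum was 5324 to 13400 CPM. Of 10 cumulus and granulosa cell markers, 7 were at 0 in all libraries, among them Foxl2, Amh and Fshr, and the list's sum of 35.0 to 166 CPM was mostly Cyp19a1. That sum was 87.9 and 53.3 CPM in MO injected against 47.8 and 51.3 CPM in MO control libraries, and 166 and 68.3 CPM in S31A injected against 35.0 and 90.2 CPM in S31A control libraries; its part in the results was not tested. Markers of the 2-cell embryo summed to 39.7 to 320.5 CPM and blood markers to 0 to 0.856 CPM.

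By the counts assigned to the members themselves, a few factors held most of the family's summed level. Counts on near-identical copies, described below, were left out. Of these, Gm9892, a copy of Eif2s2, had 54071 counts and Eif4a-ps4, a copy of Eif4a1, had 59287, against 60278 for Eif2b1. Both copies are shorter than the 2581 bases of Eif2b1, so per base both had more counts than Eif2b1. The ranking and shares thus depend on how reads were assigned. On a scale of reads per kilobase of gene scaled to library size (RPKM), which allows genes to be compared, the 2 highest members, Eif2b1 and Eif4e3, held 36.4% of the summed level of the 55 and the 10 highest held 82.8%. Mean levels over the 4 samples were 281 RPKM for Eif2b1, the alpha subunit of eIF2B, and 281 RPKM for Eif4e3, a divergent cap-binding protein of the eIF4E family. The next were Eif1b at 159, Eif5a at 129, Eif4a1 at 106, Eif1 at 91.1, Eif4e at 65.0, Eif5 at 63.5, Eif4g2 at 54.1 and Eif4a2 at 48.2 RPKM. Subunits of one complex did not stand at like levels. In eIF2B the mean level of Eif2b1 was 281 RPKM while the other 4 subunits ran from 0.489 to 4.74 RPKM, and the 14 eIF3 genes ran from 0.180 RPKM for Eif3e to 19.9 RPKM for Eif3j2. Both ends of the eIF3 range depend on read assignment. Copies of Eif3e took 98.1% of the joint counts, and Eif3j2 shares nearly all of its coding sequence with Eif3j1. In all, 5 members averaged above 100 RPKM, 11 lay between 10 and 100, 25 between 1 and 10, and 12 had counts but averaged under 1 RPKM.

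**Figure D1:**
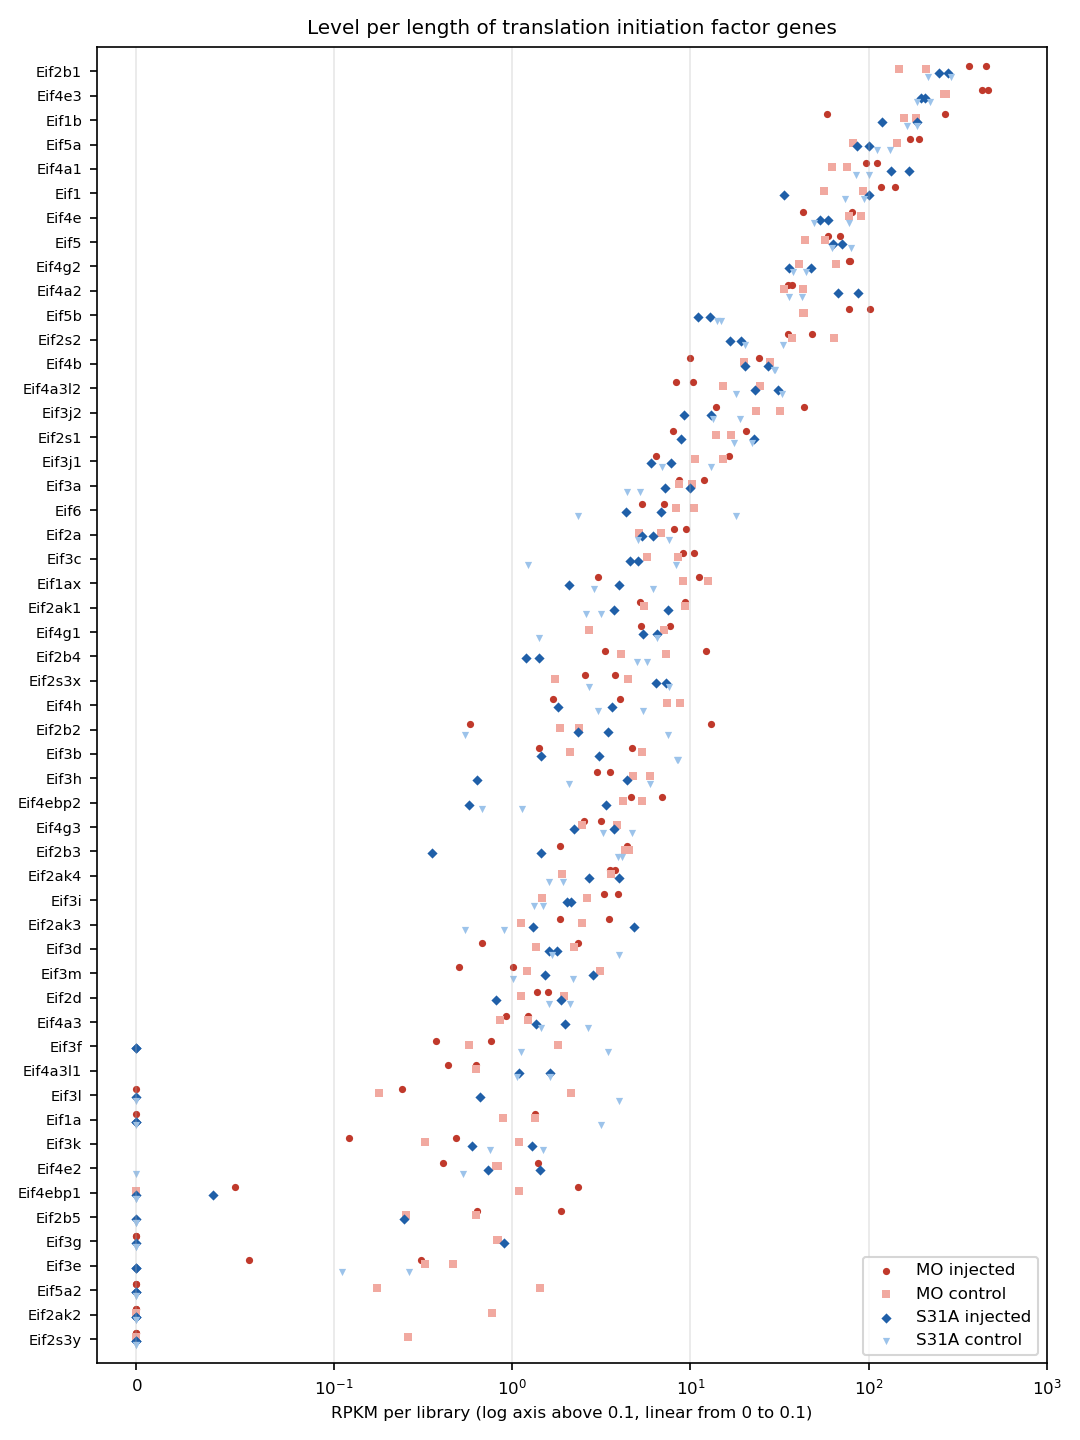
Level per length (RPKM, log axis above 0.1 and linear below) of the 53 members with counts in each of the 8 libraries, ordered by their mean over the 4 samples. Eif2b1 and Eif4e3 lie at the top at means of 281 RPKM each, and Eif2s3y, with counts in 1 library, lies at the bottom.

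Many members have near-identical copies elsewhere in the genome, which bears on what the counts of the parent gene mean. Aligning the coding sequences of 52 members to GENCODE M21 transcripts, at 90% identity and 50% coverage or more, found copies listed in the table for 20 members. The submitters' notes name Bowtie2, an aligner that does not split reads across introns, so a read over an exon junction can match an intronless copy better than the spliced gene; whether this happened was not tested. The handling of reads with several matches is not stated in the labels or notes used here. Eif2s2, the beta subunit of eIF2, had 17636 counts over the 8 libraries, while its copy Gm9892 on chromosome 8, annotated as a processed pseudogene and 99.5% identical over the aligned coding sequence, had 54071. Eif4a1, the main eIF4A helicase, had 37708 counts and its copy Eif4a-ps4 (chr1:60703932-60705149, mm10) had 59287 at 99.9% identity. The following 90-base stretches, from GENCODE M21 transcripts, are shown because they hold bases by which a read from the coding sequence can be assigned. They cover coding bases 533 to 622 of 993 in Eif2s2, where 2 of the 5 differences of the whole alignment fall, and coding bases 445 to 534 of 1218 in Eif4a1, which hold the 1 difference of its whole alignment. Capitals mark the differing bases.
Eif2s2: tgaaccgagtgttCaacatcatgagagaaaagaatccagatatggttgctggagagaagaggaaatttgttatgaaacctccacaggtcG
Gm9892: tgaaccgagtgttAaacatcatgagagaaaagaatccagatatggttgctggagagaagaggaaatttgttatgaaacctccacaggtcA
Eif4a1: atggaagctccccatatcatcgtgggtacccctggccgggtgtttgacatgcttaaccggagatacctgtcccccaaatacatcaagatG
Eif4a-ps4: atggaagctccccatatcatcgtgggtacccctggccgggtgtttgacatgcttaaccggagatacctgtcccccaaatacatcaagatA

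A read that misses the base in capitals in the second pair fits the coding sequence of Eif4a1 and of Eif4a-ps4 equally well. Copies took more counts than the gene for 8 of the 20 members, with 98.1% of the joint counts on copies for Eif3e, 89.6% for Eif4a3, 75.4% for Eif2s2 and 61.1% for Eif4a1. Another of the 8 is Eif3i, whose copy 4930503E24Rik is a noncoding gene rather than an annotated pseudogene, so its counts need not come from the matching part. Eif1, a small protein that guards start codon choice, had 19 pseudogene copies in the table, of which 10 had counts. Eif3j1 and Eif3j2 are both members and were identical over 99.7% of the Eif3j1 coding sequence, so their coding reads cannot be told apart. Eif4a3l1 and Eif4a3l2, which lie in GENCODE M21 under the older names Gm8994 and Gm5580, aligned to Eif4a3 at 96.2% and 96.8% identity. Their 126 and 2240 counts are not part of the 89.6% for Eif4a3, which rests on the copy Gm5576 alone. Neither was among the 52 members whose own copies were searched for. For overlapping genes on the opposite strand the strand setting was not given either: Rev1 covers 1643 of the 9753 exonic bases of Eif5b, with 1542 counts on Rev1 against 31913 on Eif5b.

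**Figure D2:**
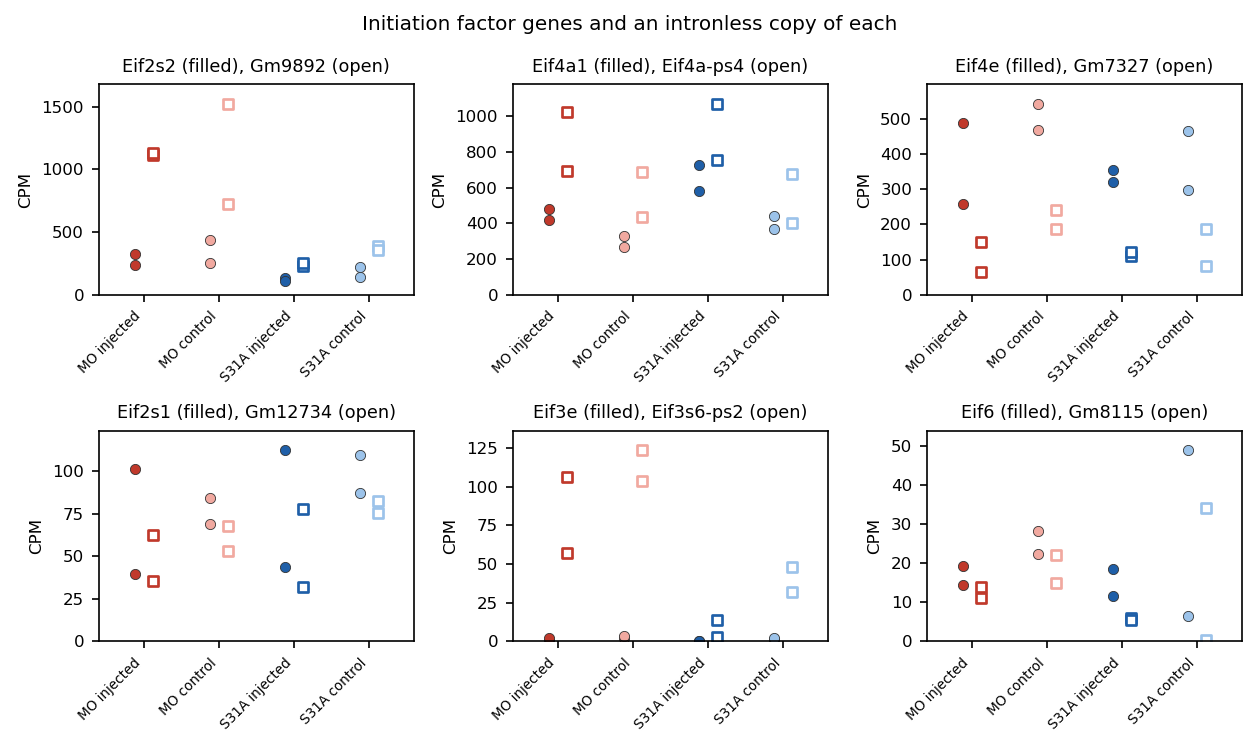
CPM per library of 6 members (filled circles) and of 1 intronless copy of each (open squares), for the 4 samples. Gm9892 lies above Eif2s2 in every library and Eif3s6-ps2 above Eif3e in every library, while Gm7327 lies below Eif4e in every library.

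Injection of the H3.3 MO went with higher RNA of Eif5b and Eif2b1 and lower RNA of Eif4h, and most other factors lay within 2-fold of the control. At 10 CPM or more in the injected or the control sample, 36 members were measured, 3 of them through 1 sample only, among which Eif2b2 was past 2-fold. For a low gene, passing through 1 sample alone selects for a difference between the samples; Eif5b, Eif2b1 and Eif4h reached 10 CPM in both. Of the 36, 3 (8.33%) were at least 2-fold higher, against 11.3% of the 8110 genes measured, and 1 (2.78%) was at least 2-fold lower, against 12.5%, so neither share was above that of all genes. The median log2 ratio was 0.18 over the members and 0.03 over all genes. Levels are relative to the library, so a change in the total RNA of a zygote would not show. With both injected libraries above or below both control libraries as well, 2 members were higher (7.29% of all genes) and 1 was lower (10.4%). At any size, 11 of 36 members (30.6%) had both injected libraries above both controls, against 19.2% of all genes, and 3 (8.33%) had both below, against 21.3%. The 11 were Eif5b, Eif2a, Eif3i, Eif2b1, Eif4e3, Eif4g2, Eif3c, Eif4a1, Eif5a, Eif1 and Eif5, and the 3 were Eif6, Eif4h and Eif4a3l2. Eif3i reached 10 CPM in MO injected only, at 13.6 CPM against 7.74 CPM in MO control, so the filter selects for its difference.

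The count of members past 2-fold with the MO rested on single libraries. When MO control library 1 was left out, 8 members were higher and 2 lower (21.6% and 5.41%), against 16.8% and 18.3% of all genes. When MO injected library 1 was left out it was 1 and 3 (2.70% and 8.11%), against 7.99% and 14.0% of all genes, and without MO injected library 2 it was 3 and 5 (8.33% and 13.9%), against 15.3% and 22.7%. With total counts in place of TMM scaling 2 members were lower with the MO, against 15.4% of all genes. With S31A 2 were higher and 4 lower, against 12.1% and 18.1%, Eif4a2 being under 2-fold and Eif6 past it. That scaling moved the median of all genes by over 0.1, to -0.09 in the MO experiment and -0.09 in the S31A experiment, and in the MO experiment it left 714 genes higher and 1261 lower of all genes, against 913 and 1017 with TMM.

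Injection of H3.3 S31A went with higher RNA of the helicase Eif4a2, which was above 10 CPM in both samples. The kinase Eif2ak3 was also higher, and Eif2b3, Eif2b4 and Eif3b were lower, but these 4 reached 10 CPM in 1 sample only, the one in which they were high, so the filter itself selects for such a difference. The same holds for Eif4ebp2, the other member past 2-fold. When instead the mean of the injected and control samples had to reach 10 CPM, an alternative chosen after seeing the data, Eif2ak3 and Eif4a2 were higher and Eif2b3 and Eif3b lower of 33 members (6.06% each way), against 11.1% and 12.7% of all genes. Of 35 members measured, 6 of them through 1 sample only, 3 (8.57%) were at least 2-fold higher, against 14.1% of 8191 genes, and 3 were at least 2-fold lower, against 16.1%, both shares being below those of all genes. The median log2 ratio was -0.22 over the members and 0.02 over all genes. With libraries that did not overlap, 2 members were higher (9.19% of all genes) and 3 were lower (11.4%). At any size, 6 members (17.1%) had both injected libraries above both controls, against 19.8% of all genes, and 8 (22.9%) had both below, against 19.8%. The 6 were Eif2ak4, Eif2ak1, Eif2ak3, Eif4a1, Eif4a2 and Eif3a, and the 8 were Eif5b, Eif2s2, Eif2b3, Eif2b4, Eif3b, Eif5a, Eif4b and Eif3j2. Without S31A control library 1, 4 members were higher and 8 lower (11.1% and 22.2%), against 18.5% and 18.6% of all genes. Without S31A control library 2 there were 7 and 5 (19.4% and 13.9%), against 20.4% and 18.7%. Without S31A injected library 1 there were 3 and 5 (8.82% and 14.7%), against 15.3% and 20.8%, and without library 2 there were 4 and 7 (11.4% and 20.0%), against 17.7% and 21.1%.

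The experiments have separate controls, so their directions can be set side by side. Of 34 members measured in both, 10 were higher in both injected samples, 12 were lower in both, 10 were higher with the MO and lower with S31A, and 2 were lower with the MO and higher with S31A. Some of these ratios were near 0, such as -0.003 for Eif4g3 with the MO. No such count was made over all genes, so these counts are not a result about the members. With total counts the signs of Eif2b1 and Eif4g2 with S31A, both near 0, turned. Signs under total counts were followed only for the highest members per length and for members past 2-fold without overlap. Others lay near 0 too, such as Eif3j2 at 0.01 and Eif2d at 0.10 with the MO, so further signs may turn. Adding the counts of pseudogene copies turned signs as well. The MO log2 ratio went from 0.16 to -0.455 for Eif2s3x and from -0.18 to 0.08 for Eif2s2. Gm2223, a copy of Eif2s3x, is 100% identical over 95.1% of its coding sequence and had 1191 counts against 1404 for Eif2s3x. Of the 34, Eif4a1 was the only one whose injected libraries lay above the control libraries in both experiments, and none lay below in both. The share of all genes on 1 side in both experiments was not counted either. Among members under the threshold in 1 or both experiments, Eif3i lay above in both and Eif3e below in both. None of the members past 2-fold in one experiment was past 2-fold in the other.

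**Figure D3:**
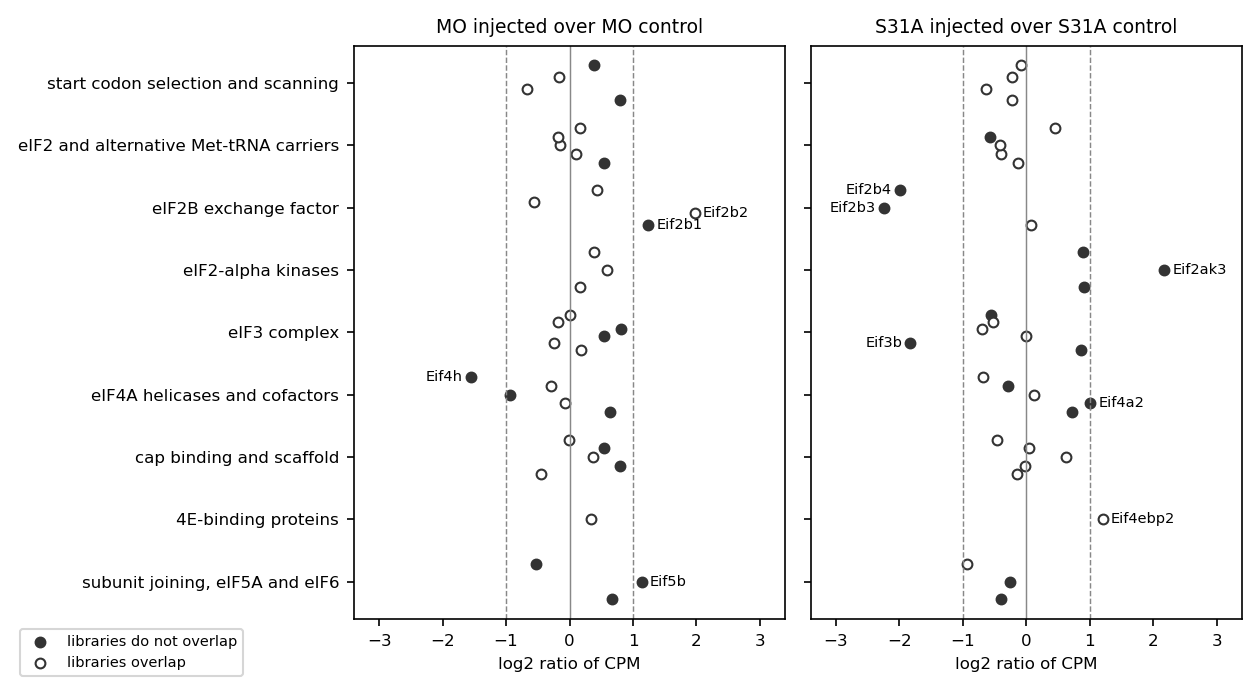
Log2 ratio of CPM of each measured member, MO injected over MO control (left) and S31A injected over S31A control (right), by role. Filled points are members whose injected libraries lie on 1 side of both control libraries, dashed lines mark 2-fold, and members past 2-fold are named.

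Factors that scan for and select the start codon were within 2-fold in both experiments. Eif1 stood at 296 and 247 CPM in MO injected against 195 and 118 CPM in MO control libraries (log2 ratio 0.80), and at 212 and 70.2 CPM in S31A injected against 197 and 155 CPM in S31A control libraries. In the S31A injected sample library 2 was the low one, and the S31A log2 ratio of -0.23 became 0.25 without it and -1.36 without S31A injected library 1. Eif1b, a close relative of Eif1, stood at 66.2 and 302 CPM in MO injected against 178 and 207 CPM in MO control libraries, and at 135 and 210.5 CPM in S31A injected against 209.9 and 184 CPM in S31A control libraries. The MO injected libraries of Eif1b spanned the controls, and its MO log2 ratio of -0.16 became 0.64 without MO injected library 1 and -1.55 without library 2. Eif5, the GTPase activator of eIF2, stood at 470 and 404 CPM in MO injected against 387 and 300.5 CPM in MO control libraries (log2 ratio 0.38), with no overlap. In the S31A experiment Eif5 stood at 433 and 481 CPM in S31A injected against 424 and 541 CPM in S31A control libraries, and these overlapped. Eif1ax, the X-linked eIF1A gene, was measured with overlap in both. Eif1a was below the threshold in both experiments and is a case of unequal libraries: it had 0 counts in both S31A injected libraries, and 0 and 13.2 CPM in S31A control libraries 1 and 2. In the MO experiment Eif1a stood at 0 and 5.57 CPM in MO injected against 3.69 and 5.59 CPM in MO control libraries. Gm5039, a protein-coding copy of Eif1a at 94.9% identity over 56.7% of its coding sequence, had its counts mainly where Eif1a had none. It stood at 4.18 and 15.6 CPM in S31A injected against 0.187 and 0 CPM in S31A control libraries. Whether reads of Eif1a went to Gm5039 was not tested.

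The genes of eIF2 and of the proteins that can deliver initiator tRNA without it were also within 2-fold. Of 6, 5 were measured in each experiment, with median log2 ratios of 0.10 with the MO and -0.39 with S31A. Eif2s2 had both S31A injected libraries below both controls, at 129.9 and 113 CPM in S31A injected against 137 and 224 CPM in S31A control libraries (log2 ratio -0.56). Its copy Gm9892 stood at 227 and 252 CPM in S31A injected against 390 and 353.5 CPM in S31A control libraries, and at 1115 and 1131 CPM in MO injected against 726 and 1524 CPM in MO control libraries. Copy and gene were thus both lower with S31A, and both overlapped with the MO. With the counts of its copy added, the log2 ratio of Eif2s2 was 0.08 with the MO and -0.61 with S31A. Eif2a, which is a separate factor and not the alpha subunit of eIF2, stood at 49.2 and 57.6 CPM in MO injected against 41.6 and 31.4 CPM in MO control libraries (log2 ratio 0.54). Eif2s3y, the Y-linked eIF2 gamma gene, had counts in MO control library 1 only, at 1.09 CPM.

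eIF2B, the exchange factor, differed by subunit and by experiment. Eif2b1 (chr5:124570213-124579131 in mm10) stood at 1179 and 952 CPM in MO injected against 541.5 and 382 CPM in MO control libraries. Both injected libraries were the higher, with a log2 ratio of 1.24 (interval 1.20 to 1.27), 2.35-fold. Without MO injected library 1 the log2 ratio was 0.965, just under 2-fold. In the S31A experiment Eif2b1 stood at 719.6 and 643 CPM in S31A injected against 752 and 559.7 CPM in S31A control libraries, which overlapped (log2 ratio 0.08, and -0.02 with total counts). Eif2b3 (chr4:117019402-117087306), the gamma subunit, stood at 2.30 and 9.42 CPM in S31A injected against 26.8 and 25.6 CPM in S31A control libraries. It was 4.71-fold lower (log2 ratio -2.24, interval -2.56 to -1.97), with -1.51 without S31A injected library 1 and -3.47 without library 2. In the MO experiment Eif2b3 stood at 12.1 and 28.8 CPM in MO injected against 29.6 and 28.1 CPM in MO control libraries, with overlap. Eif2b4 (chr5:31187558-31193430), the delta subunit, stood at 3.67 and 3.10 CPM in S31A injected against 14.8 and 13.0 CPM in S31A control libraries. It was 3.96-fold lower (log2 ratio -1.98, interval -2.41 to -1.64) and lay at -2.16 to -1.86 with any 1 library left out. In the MO experiment Eif2b4 overlapped, at 8.58 and 31.9 CPM in MO injected against 10.7 and 18.9 CPM in MO control libraries. Eif2b2, the beta subunit, had a MO log2 ratio of 1.97 that came from MO injected library 1 alone: it stood at 24.6 and 1.09 CPM in MO injected against 3.48 and 4.44 CPM in MO control libraries, and the log2 ratio was -1.74 without that library. Eif2b5, the catalytic epsilon subunit, did not reach the threshold in any sample and was highest at 4.90 CPM, in MO injected library 1. Summed over the 5 genes, eIF2B stood at 1229 and 1016 CPM in MO injected against 587 and 434 CPM in MO control libraries, and at 732 and 660 CPM in S31A injected against 795 and 612 CPM in S31A control libraries; Eif2b1 makes up most of each sum.

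All 3 measured kinases of the eIF2 alpha subunit had higher RNA in both S31A injected libraries than in both S31A control libraries. The share of all measured genes doing so was 19.8%. Eif2ak3 (chr6:70844515-70905245), also known as PERK, the kinase of the endoplasmic reticulum, stood at 29.1 and 7.92 CPM in S31A injected against 5.42 and 3.25 CPM in S31A control libraries. It was 4.51-fold higher (log2 ratio 2.17, interval 1.88 to 2.54). It reached 10 CPM in S31A injected only, so the filter selects for its difference. S31A injected library 1 was far above library 2, and without it the log2 ratio was 0.82, under 2-fold. With the MO, Eif2ak3 stood at 20.99 and 11.1 CPM in MO injected against 14.8 and 6.74 CPM in MO control libraries, which overlapped. The S31A injected libraries also lay above the controls for Eif2ak1, the haem-regulated kinase, at 21.1 and 42.6 CPM in S31A injected against 14.8 and 17.9 CPM in S31A control libraries (log2 ratio 0.90), and for Eif2ak4, also known as GCN2, the kinase that senses uncharged tRNA, at 20.1 and 29.8 CPM in S31A injected against 14.4 and 12.04 CPM in S31A control libraries (log2 ratio 0.89). Both were under 2-fold. Eif2ak2, also known as PKR, the kinase activated by double-stranded RNA, had counts in MO control library 2 only, at 3.95 CPM. The 4 kinase genes summed to 70.3 and 80.3 CPM in S31A injected against 34.6 and 33.2 CPM in S31A control libraries, and to 102 and 67.0 CPM in MO injected against 72.7 and 77.6 CPM in MO control libraries. The S31A control libraries were thus the lowest of the 8, and the S31A injected libraries lay near the MO control libraries.

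The eIF3 complex was sparsely covered, with 6 of 14 genes measured in each experiment. Eif3b (chr5:140419328-140443360), a core scaffold subunit, stood at 10.3 and 4.82 CPM in S31A injected against 28.1 and 28.5 CPM in S31A control libraries. It was 3.55-fold lower (log2 ratio -1.83, interval -2.10 to -1.59), with -2.57 without S31A injected library 1 and -1.48 without library 2. With the MO it stood at 4.75 and 15.7 CPM in MO injected against 7.06 and 17.9 CPM in MO control libraries, with overlap. S31A control was the high sample, and its libraries lay above the other 6. Eif3a, the largest subunit, lay the other way, at 86.6 and 63.3 CPM in S31A injected against 38.3 and 45.5 CPM in S31A control libraries (log2 ratio 0.86). Eif3l had unequal libraries, at 2.39 and 0 CPM in S31A injected libraries 1 and 2 against 14.4 and 0 CPM in S31A control libraries 1 and 2, and at 0 and 0.873 CPM in MO injected against 0.652 and 7.73 CPM in MO control libraries. Eif3e was nearly empty, at 0 to 3.12 CPM, while its copy Eif3s6-ps2 stood at 2.81 and 13.7 CPM in S31A injected against 48.3 and 32.2 CPM in S31A control libraries, and at 57.1 and 106 CPM in MO injected against 124 and 104 CPM in MO control libraries. With copies added, Eif3e had a log2 ratio of -2.45 with S31A and -0.55 with the MO. Eif3f was at 0 in both S31A injected libraries and at 9.998 and 3.25 CPM in the S31A control libraries.

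Both cytoplasmic eIF4A helicases, Eif4a1 and Eif4a2, had higher RNA with S31A. Eif4a1 stood at 728.5 and 581 CPM in S31A injected against 368 and 439 CPM in S31A control libraries (log2 ratio 0.72, interval 0.68 to 0.76), and at 482 and 420.2 CPM in MO injected against 328 and 269 CPM in MO control libraries (log2 ratio 0.64, interval 0.59 to 0.69). Injected libraries were above control libraries in both experiments. Its copy Eif4a-ps4 lay on the same side in both, at 1071 and 753 CPM in S31A injected against 678 and 401 CPM in S31A control libraries, and at 1024 and 691 CPM in MO injected against 434 and 686 CPM in MO control libraries. Eif4a2 (chr16:23107444-23114136), the close relative of Eif4a1, stood at 466 and 360.5 CPM in S31A injected against 190.3 and 226 CPM in S31A control libraries. It was 2.02-fold higher (log2 ratio 1.01, interval 0.96 to 1.06), and under 2-fold without S31A injected library 1 (0.74), without S31A control library 1 (0.93) or with total counts (0.91). With the MO it overlapped, at 188 and 197 CPM in MO injected against 229.6 and 178 CPM in MO control libraries (log2 ratio -0.07). Eif4h (chr5:134619721-134639490), a cofactor that stimulates eIF4A, stood at 9.42 and 22.4 CPM in MO injected against 48.2 and 40.8 CPM in MO control libraries. It was 2.94-fold lower (log2 ratio -1.56, interval -1.76 to -1.37), with -1.04 without MO injected library 1 and -2.28 without library 2. In the S31A experiment Eif4h stood at 10.1 and 20.2 CPM in S31A injected against 16.8 and 30.1 CPM in S31A control libraries and overlapped. Summed, the 7 genes of this group stood at 1376 and 1088 CPM in S31A injected against 737 and 879 CPM in S31A control libraries, and at 805 and 698 CPM in MO injected against 719 and 650 CPM in MO control libraries.

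Of the cap-binding and scaffold genes, 5 of 6 were measured and none was past 2-fold. Eif4e3 stood at 1094 and 1180 CPM in MO injected against 683 and 666 CPM in MO control libraries (log2 ratio 0.79, interval 0.76 to 0.83), and at 495.5 and 524 CPM in S31A injected against 473 and 554 CPM in S31A control libraries (log2 ratio -0.01). The MO injected libraries were above all 6 others. Eif4e, the main cap-binding protein, overlapped in both, at 257 and 488 CPM in MO injected against 468 and 543 CPM in MO control libraries, and at 355 and 321 CPM in S31A injected against 464 and 297 CPM in S31A control libraries. Eif4g2, also known as DAP5, a scaffold that lacks the eIF4E binding site, stood at 787 and 801 CPM in MO injected against 664 and 412.5 CPM in MO control libraries (log2 ratio 0.55), and at 483 and 362.5 CPM in S31A injected against 383 and 450.4 CPM in S31A control libraries (log2 ratio 0.04, and -0.05 with total counts). It was higher in both MO injected libraries and overlapped with S31A. The scaffolds Eif4g1 and Eif4g3 overlapped in both experiments.

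Of the 4E-binding proteins, Eif4ebp2 was the only one measured. It stood at 19.4 and 3.32 CPM in S31A injected against 3.92 and 6.59 CPM in S31A control libraries (log2 ratio 1.20). S31A injected library 2 was below both controls, and the log2 ratio was -0.70 without S31A injected library 1 and 0.92 without S31A control library 1. With the MO it stood at 40.1 and 26.7 CPM in MO injected against 31.1 and 24.3 CPM in MO control libraries (log2 ratio 0.34). Eif4ebp1 reached 5.13 CPM at most, in MO injected library 1.

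Of the factors of subunit joining and of the later steps, Eif5b was past 2-fold, in the MO experiment. Eif5b (chr1:37998010-38055579) stood at 989 and 759.5 CPM in MO injected against 424 and 419 CPM in MO control libraries. It was 2.20-fold higher (log2 ratio 1.14, interval 1.097 to 1.18), and under 2-fold without MO injected library 1, at a log2 ratio of 0.82. In the S31A experiment Eif5b stood at 126 and 107 CPM in S31A injected against 144.5 and 138 CPM in S31A control libraries, both injected libraries being lower (log2 ratio -0.25). Eif5a, which carries the amino acid hypusine and acts mainly in elongation, lay on the same sides: it stood at 456.5 and 404.5 CPM in MO injected against 344 and 194 CPM in MO control libraries (log2 ratio 0.67). In the S31A experiment Eif5a stood at 206 and 239 CPM in S31A injected against 265 and 314 CPM in S31A control libraries (log2 ratio -0.39). The libraries of Eif5b and Eif5a did not overlap in either experiment, with opposite directions; the difference between the experiments was not tested. Eif6, which keeps the subunits apart, stood at 14.5 and 19.2 CPM in MO injected against 22.4 and 28.3 CPM in MO control libraries (log2 ratio -0.53). In the S31A experiment it stood at 11.7 and 18.5 CPM in S31A injected against 6.35 and 48.9 CPM in S31A control libraries. The S31A control libraries were far apart for Eif6, and so were those of its copy Gm8115, at 0.374 and 34.0 CPM. Eif5a2 was detected in the MO control libraries only, at 0.869 and 7.23 CPM.

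**Figure D4:**
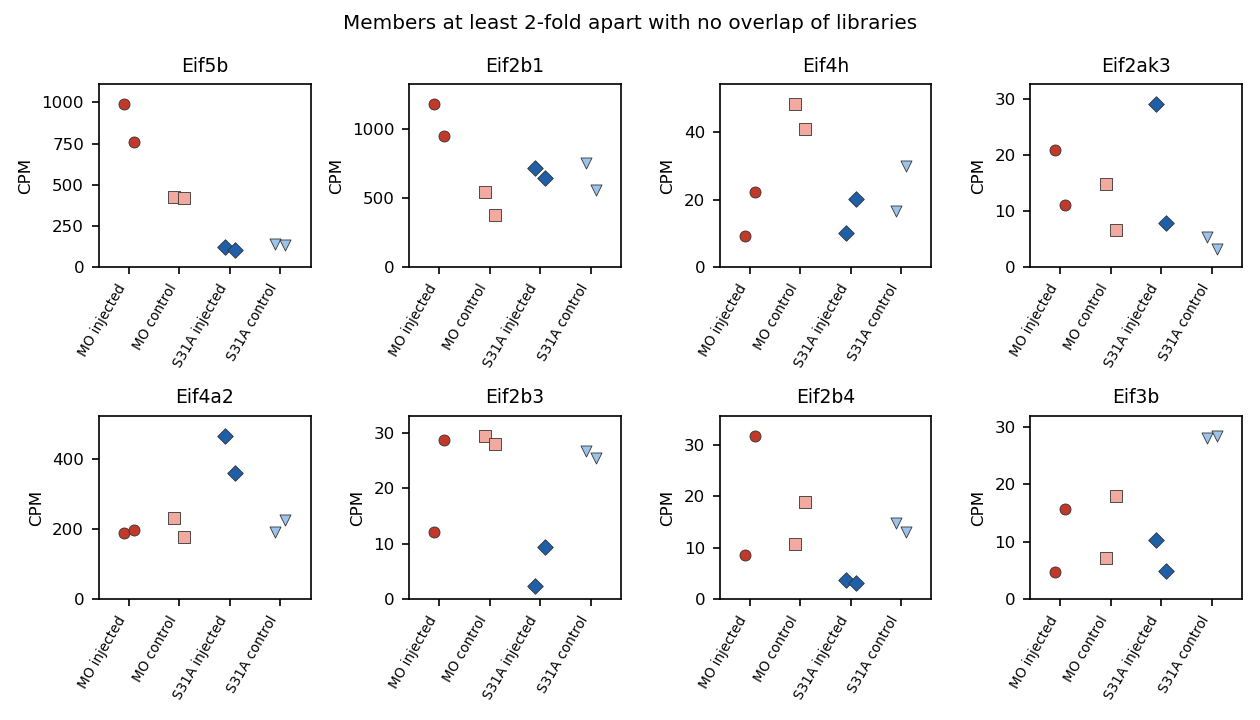
CPM per library of the 8 members at least 2-fold apart with no overlap of libraries in either experiment; each panel starts at 0 and shows library 1 left of library 2. Eif5b, Eif2b1 and Eif4h stand apart in the MO experiment, and Eif2ak3, Eif4a2, Eif2b3, Eif2b4 and Eif3b in the S31A experiment.

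Summed over all 55 members, initiation factor RNA stood at 7305 and 7431 CPM in MO injected against 5569 and 5137 CPM in MO control libraries, and at 5205 and 4752 CPM in S31A injected against 4764 and 4962 CPM in S31A control libraries. The MO injected libraries were above all others. Eif2b1, Eif4e3 and Eif5b, chosen after their values were seen, gave 3261 and 2892 CPM of this in MO injected against 1649 and 1467 CPM in MO control libraries. The other 52 members summed to 4045 and 4539 CPM in MO injected against 3920 and 3670 CPM in MO control libraries, and to 3863 and 3478 CPM in S31A injected against 3394 and 3710 CPM in S31A control libraries.

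**Figure D5:**
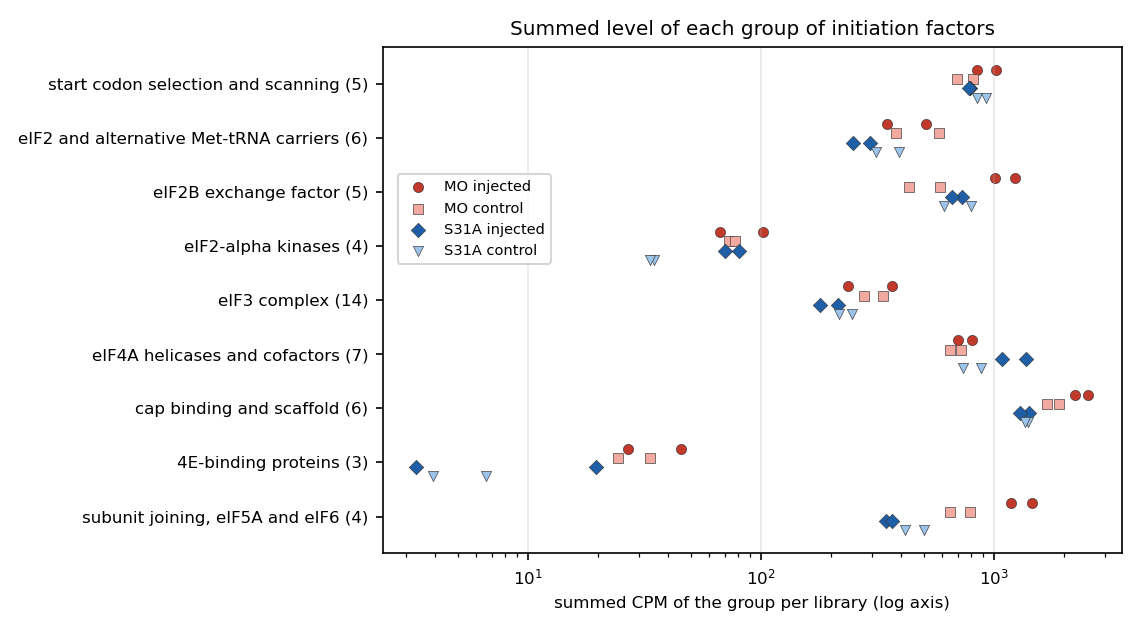
Summed CPM per library (log axis) of the members of each role, with the number of genes in brackets. The eIF2B, subunit joining, cap binding and start codon sums of the MO injected libraries lie above those of the MO control libraries. The eIF4A and eIF2-alpha kinase sums of the S31A injected libraries lie above those of the S31A control libraries. The start codon, eIF2, eIF3 and subunit joining sums of the S31A injected libraries lie below those of the S31A control libraries.

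The control samples, which differ in no stated treatment, also differed from each other. S31A control over MO control shares its samples with the comparisons above. Of 35 members measured, 1 was at least 2-fold higher in S31A control (13.6% of 8266 genes) and 5 were at least 2-fold lower (16.2%), and the median log2 ratio was 0.05 over the members and 0.05 over all genes. Eif3b was the higher one (log2 ratio 1.36). Eif5b was lower in S31A control (log2 ratio -1.52), as were Eif2ak1 (-1.22), Eif2ak3 (-1.35), Eif4ebp2 (-2.35) and Eif1ax (-1.14). In all 6 the libraries did not overlap, as in 9.67% of the 8266 genes for at least 2-fold higher and 14.5% for at least 2-fold lower. Eif2ak3 and Eif4ebp2 reached 10 CPM in MO control only. Without MO control library 1 there were 0 higher and 5 lower (16.4% and 19.0% of all genes), and without MO control library 2 there were 3 and 4 (15.9% and 16.7%). Without S31A control library 1 there were 4 higher and 5 lower (16.3% and 20.5% of all genes), and without S31A control library 2 there were 4 and 10 (17.01% and 21.91%). Under 2-fold were Eif3b (0.70) and Eif2ak3 (-0.59) without MO control library 1, Eif2ak1 (-0.88) and Eif1ax (-0.94) without MO control library 2, and Eif1ax (-0.74) without S31A control library 1. Eif5b, Eif3b and Eif2ak3, 3 of the 8 members named for a difference with an injection, thus also differed at least 2-fold between the controls.

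Libraries of the same sample often differed by 2-fold. In the MO injected sample 13 of 38 members were at least 2-fold apart between libraries 1 and 2, against 39.8% of all genes at 10 CPM or more in either library. In the MO control sample it was 4 of 35 (24.8% of all genes), in the S31A injected sample 7 of 33 (41.0%) and in the S31A control sample 9 of 36 (40.4%). At 10 CPM or more in 1 library and 0 counts in the other stood 2 of 36 members in the S31A control sample, Eif3l and Eif1a (8.39% of all genes), and none in the MO injected (3.61%), MO control (0.735%) and S31A injected (8.2%) samples.

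The spread between libraries was also put into tests across all genes. Their p-values reflect library-to-library spread inside single samples, possibly technical, and say nothing of variation between samples. With edgeR's quasi-likelihood test and Benjamini-Hochberg adjustment no member passed 0.05 in either experiment, where 0.0% of all genes passed with the MO and 0.0244% with S31A. Before adjustment edgeR placed Eif2b1, Eif5b and Eif4e3 under 0.05 with the MO, as it did 5.29% of all genes, and Eif4a2 and Eif4a1 with S31A, as it did 5.98% of all genes. DESeq2 passed no member with the MO (0.666% of all genes) and 2 with S31A (7.34%), Eif4a2 (adjusted p = 0.00287) and Eif4a1 (adjusted p = 0.0254), each higher in both injected libraries, with an adjusted p of 0.802 for each in edgeR.

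Genes that work with the initiation factors but carry other names were counted from lists of their own, to be read against the shares of all genes at least 2-fold higher and lower, 11.3% and 12.5% with the MO and 14.1% and 16.1% with S31A. Of 9 measured partners of initiation, none was at least 2-fold higher and 4 were lower with the MO, and none was higher and 1 was lower with S31A. Abcf1, which binds eIF2, stood at 4.37 and 8.84 CPM in MO injected against 59.8 and 34.2 CPM in MO control libraries (log2 ratio -2.92). Pdcd4, an inhibitor of eIF4A, stood at 6.82 and 8.29 CPM in MO injected against 20.3 and 34.7 CPM in MO control libraries (log2 ratio -1.74). Both were below the controls in each MO injected library, and both reached 10 CPM in the MO control sample only, so that the filter selects for their difference; the other 7 measured partners reached it in both samples. Paip2, which keeps poly(A)-binding protein from eIF4G, had a MO log2 ratio of -1.19, which was -0.22 without MO injected library 1 and -3.31 without library 2. Dhx29, a helicase of scanning, had a S31A log2 ratio of -1.21, which was -0.89 without S31A injected library 1 and -0.61 without S31A control library 1. Pabpc1l, the fourth lower partner with the MO (log2 ratio -1.16), had libraries that overlapped, and was under 2-fold without MO control library 2 (-0.26) or MO injected library 2 (-0.71). The elongation list held genes with Eef names, not all of which need be elongation factors themselves. Of these genes 2 of 6 were lower with the MO, Eef1e1 (log2 ratio -2.02, and -2.70 without MO injected library 2) and Eef1a1 (-1.69). With S31A 1 of 5 was lower, Eef1a1 (-1.01), and none was higher in either experiment. Eef1a1 was at -0.70 with the MO without MO injected library 1 and -3.98 without library 2, and at -0.64 with S31A without S31A injected library 1 and -0.84 without S31A control library 2. Of 5 termination and recycling genes Gspt2 was lower with the MO (-1.39) and Etf1 with S31A (-1.07, and -0.88 without S31A injected library 2 and -0.68 without S31A control library 2). Abce1 was higher with S31A with libraries that overlapped (log2 ratio 5.14, and 0.54 without S31A injected library 1). It reached 10 CPM in S31A injected only, and stood at 1.31 and 0.0879 CPM in S31A control against 16.95 and 21.04 CPM in MO control libraries.

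Signalling genes that act on initiation were the last list. With the MO 2 of 12 were at least 2-fold higher, against 11.3% of all genes, and none lower, with a median log2 ratio of 0.53, and with S31A 3 of 10 were higher, against 14.1%, and 1 was lower, Tsc2 (log2 ratio -1.17), with libraries that overlapped, and under 2-fold without S31A control library 1 (-0.31) or S31A injected library 1 (-0.66). Ppp1r15a, also known as GADD34, which directs removal of the phosphate from eIF2 alpha, stood at 45.9 and 71.2 CPM in MO injected against 14.9 and 22.2 CPM in MO control libraries (log2 ratio 1.71), and at 22.7 and 38.5 CPM in S31A injected against 20.3 and 7.30 CPM in S31A control libraries (log2 ratio 1.13). It was above the controls in both injected samples, but with S31A it was 0.71 without S31A injected library 2, 0.60 without S31A control library 2 and 2.04 without S31A control library 1. Mtor, the kinase that phosphorylates the 4E-binding proteins, stood at 55.6 and 21.3 CPM in MO injected against 12.4 and 15.1 CPM in MO control libraries (log2 ratio 1.67, and 0.63 without MO injected library 1). Mknk2, a kinase of eIF4E, stood at 48.5 and 40.1 CPM in S31A injected against 15.0 and 7.82 CPM in S31A control libraries (log2 ratio 1.98). Tsc1, which restrains mTOR signalling, was higher with S31A as well, with a log2 ratio of 2.08, 1.41 without S31A injected library 1, 1.23 without S31A control library 1 and 5.38 without S31A control library 2; it reached 10 CPM in S31A injected only.

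The controls also differed in these lists. S31A control was at least 2-fold above MO control in 1 and below it in 1 of 9 partners, in 0 and 1 of 5 genes with Eef names, in 1 and 1 of 5 termination and recycling genes, and in 1 and 2 of 11 signalling genes, against 13.6% and 16.2% of all genes. Of the genes named here, Dhx29 was higher in S31A control (log2 ratio 1.02), and Paip2 (-1.60), Abce1 (-4.53) and Tsc1 (-1.24) were lower, with libraries that did not overlap. The shares of all genes past 2-fold without overlap were 9.67% higher and 14.5% lower. Dhx29 was under 2-fold without MO control library 1 (0.95) or S31A control library 1 (0.42), and Tsc1 without S31A control library 1 (-0.38). Abce1 and Tsc1 reached 10 CPM in MO control only, so the filter selects for their difference.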

How the data were processed

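Zygote RNA was sequenced in 4 samples with 2 count columns each. PCR-amplified cDNA went into a DNA library kit, per the labels' protocols. The submitters' processing notes name the mm10 build and the tools Bowtie2, featureCounts, FastQC and DESeq2, with no versions, annotation release, strand or multiple-match settings. The deposited values are raw counts per gene, and the gene lengths are those in the deposited table.

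The counts of a sample's libraries were added and TMM-scaled (edgeR 4.0.16, R 4.3.3). Log2 ratios used a prior count of 2, for genes that reached 10 CPM in either sample of a comparison; differences of at least 2-fold were counted. Intervals of ratios are 95% Clopper-Pearson (exact). Groups of 1 sample were not tested against each other. The 2 columns of a sample count as 1 replicate; a chi-square of their counts gave 47.1 to 123 per degree of freedom, so they are not copies of a single library. PCR copies cannot be told from molecules, so intervals cover counting error only. edgeR and DESeq2 1.42.0 were run over libraries as a description of their spread, and the steps were tested on simulated data. Copies were found with BLAST+ 2.17.0; Emd, whose span holds an annotated Eif1 pseudogene, was not counted as a copy. Of the 55 members, 53 had their symbol in GENCODE M21, all with the same coordinates.

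Alternatives were total counts, DESeq2 size factors, a prior count of 0.5, filters of 1 and 50 CPM or none, leaving out each library, a library-number block, and, added after seeing the data, copy counts, a filter on the mean of both samples, and the same omissions for other genes and the controls.

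The members and gene lists were chosen with earlier results of these data known. Values per library are given in full for the 10 members highest per length, for members at least 2-fold apart with no overlap, and for members at 10 CPM or more in 1 library and 0 in its partner; other members and copies named were chosen after their values were seen. Of listed partner genes, up to 3 per list with the largest ratios and no overlap were named, and Abce1, Pabpc1l and Tsc2 were named after their values were seen.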

Additional observations from a re-analysis of the deposited data

How the results depend on the processing

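No ratio past 2-fold changed sign with another scaling or prior count. Among the members followed, the near-zero S31A log2 ratios of Eif2b1 and Eif4g2 did with total counts, to -0.02 and -0.05. Other members with ratios near 0 were not followed. With total counts 2 members were at least 2-fold lower with the MO, against 15.4% of all genes, and the members' median log2 ratio was 0.067. With S31A 2 were higher and 4 lower, against 12.1% and 18.1% of all genes. With a filter of 1 CPM there were 5 higher and 8 lower with the MO (median 0.011), against 16.7% and 24.3% of all genes, and 5 higher and 7 lower with S31A, against 22.3% and 23.7%. With a filter of 50 CPM 0 were lower with the MO (7.03% of all genes), and 1 was higher and 0 lower with S31A (8.02% and 7.38%). With no filter there were 5 higher and 9 lower with the MO (median -0.0029), against 16.3% and 29.1% of all genes, and 6 higher and 7 lower with S31A, against 23.1% and 23.98%. With the counts of pseudogene copies added, 2 of 39 measured members were lower with the MO and 5 of 37 with S31A. Of these, Eif3m with the MO and Eif3e with S31A were measured only because copies were added. No share of all genes was counted for this setting. Leaving out each library in turn gave 1 to 8 higher and 1 to 5 lower with the MO (median -0.016 to 0.378; all genes 7.99% to 16.8% and 11.98% to 22.7%), and 3 to 7 higher and 5 to 8 lower with S31A (median -0.215 to -0.100; all genes 15.3% to 20.4% and 18.6% to 21.1%). DESeq2 over libraries passed 2 members with S31A, against 0 with edgeR. The labels give no replicate numbers; with the library number as a block, edgeR passed 0 members in each experiment, and the correlation of library 1 minus library 2 between injected and control samples was 0.11 with the MO and -0.0081 with S31A, so the numbers were not taken as a pairing. The causes of these shifts were not tested, beyond the fewer or more genes a filter leaves. Depth limits the members with few counts: 3 counts in a library stand for 0.230 to 0.493 CPM, and 18 of the 55 members were measured in neither experiment.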
